A study of Mus musculus with 12 samples.

Results

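Of the 39210 genes quantified in mouse ventricle, 10 are examined here because they are characteristic of fat cells: Adipoq, Plin1, Cfd, Lep, Retn, Cidec, Cidea, Ucp1, Car3 and Lipe. They were selected on their names and on the observation, in these same libraries, that several were high in male hypoxia libraries 2 and 3, so the levels in those libraries are described without a test. The 12 libraries were made from ventricular mRNA of C57BL/6 mice, with 3 libraries in each of 4 groups. Males in hypoxia and females in hypoxia breathed oxygen that was lowered by 1% per day for 14 days to a final 7% and then held there for 2 weeks. Males in normoxia and females in normoxia breathed 20.9% oxygen for 4 weeks. No genetic change is given for any group. Whether the 3 libraries of a group stem from different mice is not stated, and the p-values therefore reflect only library-to-library spread, which may be technical.

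White fat cells store triglyceride in a single large lipid droplet and release hormones such as adiponectin, leptin and resistin. Brown fat cells hold many small droplets and burn fuel as heat through the uncoupling protein Ucp1. In the mouse, fat lies around the heart, mainly near the atria, the atrioventricular groove and the great vessels. In a bulk library, fewer cells of a type and less RNA per cell cannot be told apart.

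The label of fat cell genes held for part of the set only. Adipoq, Cfd, Retn, Cidec and Car3 were low in most libraries and higher in male hypoxia libraries 2 and 3 than in each of the other 10. Cidea and Lipe were present in all 12 libraries and were not highest in those libraries. Plin1, Lep and Ucp1 were at or near 0 throughout, although Plin1 and Lep are defining genes of white fat cells and Ucp1 is the defining gene of brown ones. Whether the 0 of Plin1 reflects the tissue or its quantification was not tested.

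The stretch of 250 bases upstream of the transcription start is shown for the 4 of those 5 genes that have an entry in the RefSeq promoter table, and for Ucp1 as the gene that defines brown fat. Coordinates are on GRCm38.p6, another build than the GRCm39 named for the counts, and each sequence is written along the strand of its gene. Adipoq lies at chr16:23146286-23146535 on the plus strand, Cfd at chr10:79890603-79890852 on the plus strand, Retn at chr8:3655520-3655769 on the plus strand, Cidec at chr6:113435761-113436010 on the minus strand and Ucp1 at chr8:83290098-83290347 on the plus strand. Capitals mark matches, on either strand, to the motifs AGGTCA (a nuclear receptor half-site), TTGCNNAA (a C/EBP core), CCAAT and TATAAA.
Adipoq: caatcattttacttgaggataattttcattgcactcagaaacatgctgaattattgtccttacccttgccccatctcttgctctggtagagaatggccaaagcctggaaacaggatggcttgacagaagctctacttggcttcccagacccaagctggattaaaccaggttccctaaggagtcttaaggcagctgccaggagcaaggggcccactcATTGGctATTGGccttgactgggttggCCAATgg
Cfd: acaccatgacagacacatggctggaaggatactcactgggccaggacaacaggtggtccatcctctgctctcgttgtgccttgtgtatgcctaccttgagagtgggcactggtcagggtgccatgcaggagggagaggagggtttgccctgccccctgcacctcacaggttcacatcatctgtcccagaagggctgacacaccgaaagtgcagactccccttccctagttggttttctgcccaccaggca
Retn: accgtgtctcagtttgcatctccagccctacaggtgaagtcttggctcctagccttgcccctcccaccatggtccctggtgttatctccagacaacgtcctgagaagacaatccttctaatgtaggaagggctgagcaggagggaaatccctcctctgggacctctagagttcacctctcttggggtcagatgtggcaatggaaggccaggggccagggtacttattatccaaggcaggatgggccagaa
Cidec: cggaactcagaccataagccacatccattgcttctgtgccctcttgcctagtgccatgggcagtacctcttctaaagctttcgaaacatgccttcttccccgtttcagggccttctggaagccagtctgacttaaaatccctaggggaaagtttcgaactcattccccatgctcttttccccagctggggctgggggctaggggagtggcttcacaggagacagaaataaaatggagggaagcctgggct
Ucp1: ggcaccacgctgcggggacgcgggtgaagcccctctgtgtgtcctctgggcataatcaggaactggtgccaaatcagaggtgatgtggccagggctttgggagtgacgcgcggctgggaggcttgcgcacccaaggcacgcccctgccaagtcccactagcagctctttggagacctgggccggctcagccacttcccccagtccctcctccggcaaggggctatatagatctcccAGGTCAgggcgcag
Adipoq held 3 CCAAT matches, which do not overlap one another, and Ucp1 held 1 AGGTCA match. Cfd, Retn and the start of Cidec shown held no match to the motifs searched, and a second Cidec start, at chr6:113434765-113435014 and not shown, held 1 TTGCNNAA match. Among all 32851 promoters of the table, cut to the same length, 14% held AGGTCA, 9.56% held TTGCNNAA, 33.8% held CCAAT and 12.4% held TATAAA. A pair of AGGTCA half-sites spaced 1 base apart was found in 0.0335% of promoters and in none of the 8 members with an entry. Car3 and Cidea were not searched. A match describes these letters and does not show that a factor binds there.

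Library totals ran from 14915830 to 19397851 estimated counts. Within groups, log2 levels correlated between libraries at 0.947 to 0.968, and both ends of that range lay in normoxia: the lowest value paired female normoxia libraries 1 and 3, and the highest paired male normoxia libraries 1 and 2. Mitochondrially encoded genes took 15.8% of the counts of male hypoxia library 2, against 21.5% to 29.3% in the other 11 libraries. With mitochondrially encoded and haemoglobin genes left out of the totals, the lower of male hypoxia libraries 2 and 3 stood at 11.9 times the highest other library for Cfd and 1.79 times for Adipoq, ratios that are 11.8 and 1.63 below.

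Among the secreted products of fat cells, Cfd (complement factor D, also called adipsin) stood farthest above the other libraries. It had 350 estimated counts in male hypoxia library 2 and 241 in library 3, against 11 in male hypoxia library 1, 0, 13 and 14 in male normoxia libraries 1 to 3, 0, 9 and 20 in female hypoxia libraries 1 to 3, and 0, 0 and 8 in female normoxia libraries 1 to 3. Both libraries stood clear of the others, and 4 of the other 10 had no Cfd count. Scaled to library size with TMM factors, Cfd was at 16.7 and 12.3 CPM (estimated counts scaled to a common library size) in male hypoxia libraries 2 and 3, and at most 1.04 CPM elsewhere, in female hypoxia library 3. The lower of the 2 libraries was 11.8 times the highest other one, with an exact binomial 95% interval of 7.48 to 19.7 that covers counting error only.

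Adipoq encodes adiponectin, a hormone made by fat cells. It had 46 estimated counts in male hypoxia library 2 and 33 in library 3, against 2 in male hypoxia library 1, 3, 0 and 1 in the male normoxia libraries, 0, 2 and 1 in the female hypoxia libraries, and 16, 1 and 5 in the female normoxia libraries. Female normoxia library 1 came nearest to them. In CPM, Adipoq was at 2.19 and 1.68 in male hypoxia libraries 2 and 3 and at 1.03 in female normoxia library 1. The ratio of 1.63 between the lower of the 2 and that library had an interval of 0.874 to 3.18, so the gap was not larger than counting error.

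Retn encodes resistin, which mouse fat cells secrete. It had 25.1 and 18.1 estimated counts in male hypoxia libraries 2 and 3 and 0 to 6.02 in the other 10. The ratio of 2.43 to the highest other library, male normoxia library 1, had an interval of 0.925 to 7.49, so this gap too was not larger than counting error. Lep, which encodes the hormone leptin, had 1 count in female hypoxia library 1 and 0 in the other 11 libraries.

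Car3 encodes carbonic anhydrase 3, an abundant enzyme of mouse fat cells that slow skeletal muscle also makes. It had 167 and 158 estimated counts in male hypoxia libraries 2 and 3, against 11 in male hypoxia library 1, 16, 6 and 9 in the male normoxia libraries, 7, 12 and 24 in the female hypoxia libraries, and 36, 7 and 1 in the female normoxia libraries. Both libraries were above all others, with female normoxia library 1 the nearest. The lower of them was 3.43 times that library in CPM (interval 2.38 to 5.07). Summed over 10 skeletal muscle markers, male hypoxia libraries 2 and 3 had 1395 and 1477 CPM, against 1416 to 1934 CPM in the other 10. Most of the sum was Ckm, the muscle creatine kinase, at 1178 and 1091 CPM against 1312 to 1768 CPM. Since Ckm was high in every ventricular library, the sum cannot show whether skeletal muscle was present.

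Lipid droplet proteins divided. Cidec, which promotes the growth of large droplets, had 43 and 35 estimated counts in male hypoxia libraries 2 and 3 and 0 to 7 in the other 10, and the lower of the 2 was 3.94 times the highest other library, male normoxia library 3 (interval 1.72 to 10.5). Plin1, the coat protein of the fat cell droplet that controls access of lipases, had 0 counts in all 12 libraries. A count of 0 allows up to 3 counts, or 0.143 to 0.199 CPM depending on the library. The table held 16281 genes at 0 in every library, so an absence of counts is shared by many genes. Whether the 0 of Plin1 reflects the tissue or the quantification of its transcripts was not tested.

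Lipe encodes hormone-sensitive lipase, which breaks down stored fat in fat cells and in muscle. It had 457 and 456 estimated counts in male hypoxia libraries 2 and 3, against 642 in male hypoxia library 1, 300, 475 and 301 in the male normoxia libraries, 299, 297 and 410 in the female hypoxia libraries, and 274, 404 and 648 in the female normoxia libraries. In CPM the lower of the 2 libraries was 0.512 times the highest, male hypoxia library 1 (interval 0.453 to 0.579).

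Of the 7 members with a mean of at least 3 counts per library, 5 were higher in both male hypoxia libraries 2 and 3 than in each of the other 10. Over all 15262 genes at that level, 5.39% were. The members were selected with this pattern in view, and Retn and Cidec reached a mean of 3 counts only through male hypoxia libraries 2 and 3. The comparison is therefore a description.

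**Figure D1:**
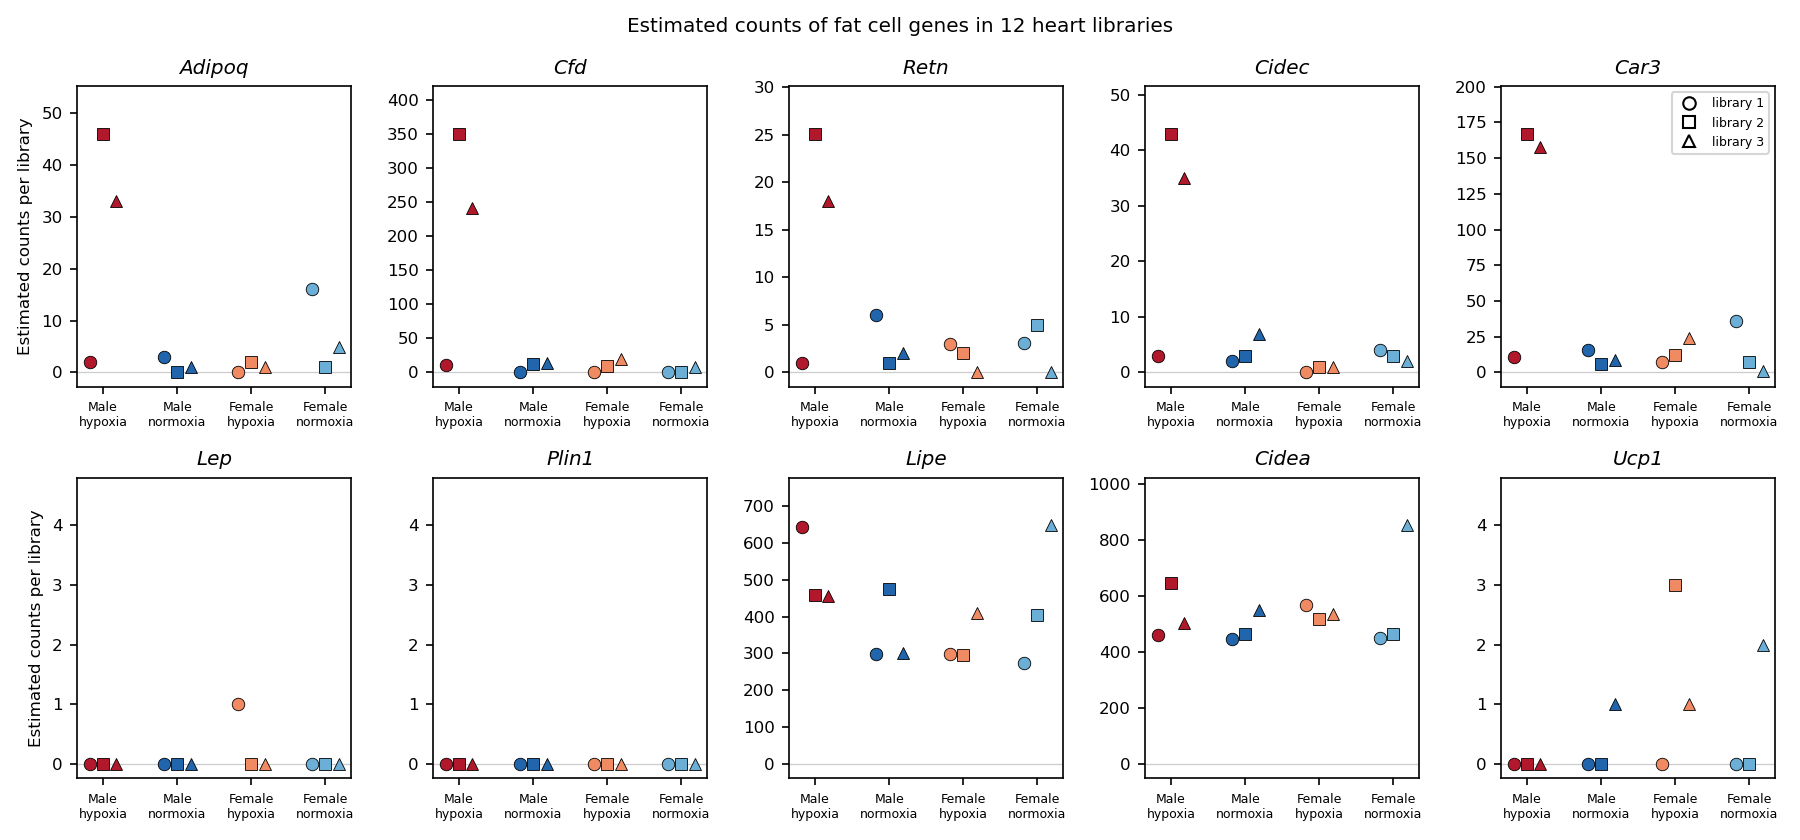
Estimated counts (y axis, a scale for each gene) of the 10 fat cell genes in each of 12 libraries, grouped by sex and oxygen on the x axis, with circles, squares and triangles for libraries 1, 2 and 3. Adipoq, Cfd, Retn, Cidec and Car3 are highest in male hypoxia libraries 2 and 3 (Cfd 350 and 241), Lipe and Cidea are present in every library, and Plin1, Lep and Ucp1 do not exceed 3 counts in any.

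The brown fat members Ucp1 and Cidea did not follow Adipoq, Cfd, Retn, Cidec and Car3, and neither did Lipe, Plin1 and Lep. Dio2 of the wider brown fat list was highest in both male hypoxia libraries 2 and 3, but by a small margin. It was at 13.6 and 15.7 CPM there, against 10.7 and 12.7 CPM in female hypoxia libraries 2 and 3. Male hypoxia library 1 had 4.57 CPM, and the male normoxia libraries had 1.01 to 1.25 CPM. Ucp1 had 0 counts in all 3 male hypoxia libraries, against 0, 0 and 1 in the male normoxia libraries, 0, 3 and 1 in the female hypoxia libraries, and 0, 0 and 2 in the female normoxia libraries. Against 46 Adipoq counts in male hypoxia library 2, the absence of Ucp1 allows up to 7.71% of the sum of both genes (exact 95% limit), and against 33 in library 3 it allows up to 10.6%. The limits cover counting error only.

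Cidea, a lipid droplet protein that mouse brown fat cells make in quantity, was present in every library. It had 460, 648 and 503 estimated counts in the male hypoxia libraries, against 447, 464 and 552 in the male normoxia libraries, 567, 517 and 535 in the female hypoxia libraries, and 452, 465 and 854 in the female normoxia libraries. Male hypoxia libraries 2 and 3 lay among the others, and female normoxia library 3 was the highest. The lower of the 2 was 0.487 times that library in CPM (interval 0.435 to 0.544). Cidea made up 93.4% (exact 95% interval 91.3 to 95.1) of the Cidea and Adipoq counts in male hypoxia library 2 and 93.8% (91.5 to 95.7) in library 3, against 96.6% (94.5 to 98.0) in female normoxia library 1 and at least 99.3% in the other 9.

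Per length, in the deposited TPM (transcripts scaled by length and library), the order of levels in male hypoxia libraries 2 and 3 was Cidea at 28.8 and 20.6, Cfd at 20.1 and 12.7, Lipe at 7.11 and 6.64, and Car3 at 4.53 and 3.97. Below them, Adipoq was at 2.42 and 1.12, Cidec at 2.00 and 2.48, and Retn at 1.55 and 1.03. The order of Adipoq and Cidec differed between the 2 libraries. In the other 10 libraries Cidea was at 16.4 to 34.4 TPM and Lipe at 3.95 to 11.1 TPM, whereas Adipoq reached at most 0.575 TPM.

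The proportions of the 5 genes that were highest in both libraries are given as a description, since those libraries chose them. Cfd made up 55.5% of their summed counts in male hypoxia library 2 (350 of 631, exact 95% interval 51.5 to 59.4) and 49.7% in library 3 (241 of 485, 45.2 to 54.2). Car3 made up 26.5% (23.1 to 30.1) in library 2 and 32.6% (28.4 to 36.9) in library 3. Female normoxia library 1, which had the next highest Adipoq and Car3, had 0 Cfd counts of 59, which allows a share of up to 6.06%, while Car3 made up 61.0% of the 59 and Adipoq 27.1%.

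Male hypoxia library 2 held 51.7% of the TMM-corrected size of libraries 2 and 3 together. Its share of their counts was 59.2% for Cfd (exact 95% interval 55.1 to 63.2) and 56.3% for Cidea (53.4 to 59.2), both above the size share. It was 58.2% for Adipoq (46.6 to 69.2), 58.1% for Retn (42.1 to 73.0), 55.1% for Cidec (43.4 to 66.4), 51.4% for Car3 (45.8 to 56.9) and 50.1% for Lipe (46.8 to 53.3), and each of these 5 intervals held the size share.

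Some markers of atrial muscle were high in the same libraries. Of 10 atrial genes with a mean of at least 3 counts, out of 12 listed, 5 were highest in both male hypoxia libraries 2 and 3: Myl4, Myl7, Sln, Dkk3 and Mybphl, where 5.39% of all genes were. Sln and Mybphl had at most 3 and 5 counts in any other library and reached that mean only through those libraries. Their place as highest was therefore partly set by the filter. The list was chosen with earlier results of these data known, and the comparison is a description. Myl4, the atrial essential myosin light chain, was at 91.8 and 69.0 CPM in male hypoxia libraries 2 and 3 and at most 4.50 CPM elsewhere. Myl7, the atrial regulatory light chain, was at 57.9 and 54.1 CPM against at most 0.781 CPM, and Sln, the atrial calcium pump regulator sarcolipin, was at 16.2 and 11.5 CPM against at most 0.164 CPM. Other genes of the list were not highest in both: Kcnj3, a potassium channel, was at 39.1 and 23.5 CPM against 23.7 to 60.4 CPM, and Stard10, Gja5, Tbx5 and Nppa also overlapped the other libraries. Bmp10 had too few counts to be compared, and Fgf12 was at 0 in all 12. Summed over the list, atrial markers were at 1802 and 1021 CPM, against 175 to 1108 CPM in the other 10, so the sums overlapped. Nppa made up most of the sum in male hypoxia libraries 2 and 3, at 1512 and 797 CPM. It also did so in the highest other library, female hypoxia library 3, at 1046 CPM. The overlap of the sums therefore largely reflects Nppa, and the list was not summed without it. The share of male hypoxia library 2 was 58.8% for Myl4 (57.0 to 60.4), 53.4% for Myl7 (51.3 to 55.5), 60.1% for Sln (55.9 to 64.2), 56.5% for Dkk3 (53.8 to 59.2) and 55.9% for Mybphl (49.5 to 62.0), and the intervals of Myl7 and Mybphl held the size share of 51.7%. It was 67.0% for Nppa, the atrial natriuretic peptide. The part of atrial tissue in the fat cell gene levels was not tested.

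The other marker lists were read in the same way. Beside the 5.39% of all genes, 2 of 10 fat progenitor genes were highest in both libraries, the collagen-binding proteoglycan Dcn and the growth factor receptor Pdgfra. Dpp4 of the same list was lowest in both, at 0.715 and 1.02 CPM against at least 1.36 CPM in the other 10. The summed list was at 1287 and 1362 CPM against 809 to 1149 CPM, and Dcn alone was at 636 and 633 CPM. Of 9 epicardial genes 1 was highest in both, the keratin Krt8. None of 8 ventricular, 6 skeletal muscle, 6 Schwann or neural, 1 lung and 7 thymus or lymphoid genes was. Myl2 and Tnni3 of the 8 genes in the ventricular list, and the muscle creatine kinase Ckm, were lowest in both, where 4.58% of all genes were. The ventricular list, which also holds genes not limited to the ventricle such as Tnni3, summed to 41021 and 38744 CPM in male hypoxia libraries 2 and 3. Its sums in the other 10 were 39860 to 58240 CPM.

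**Figure D2:**
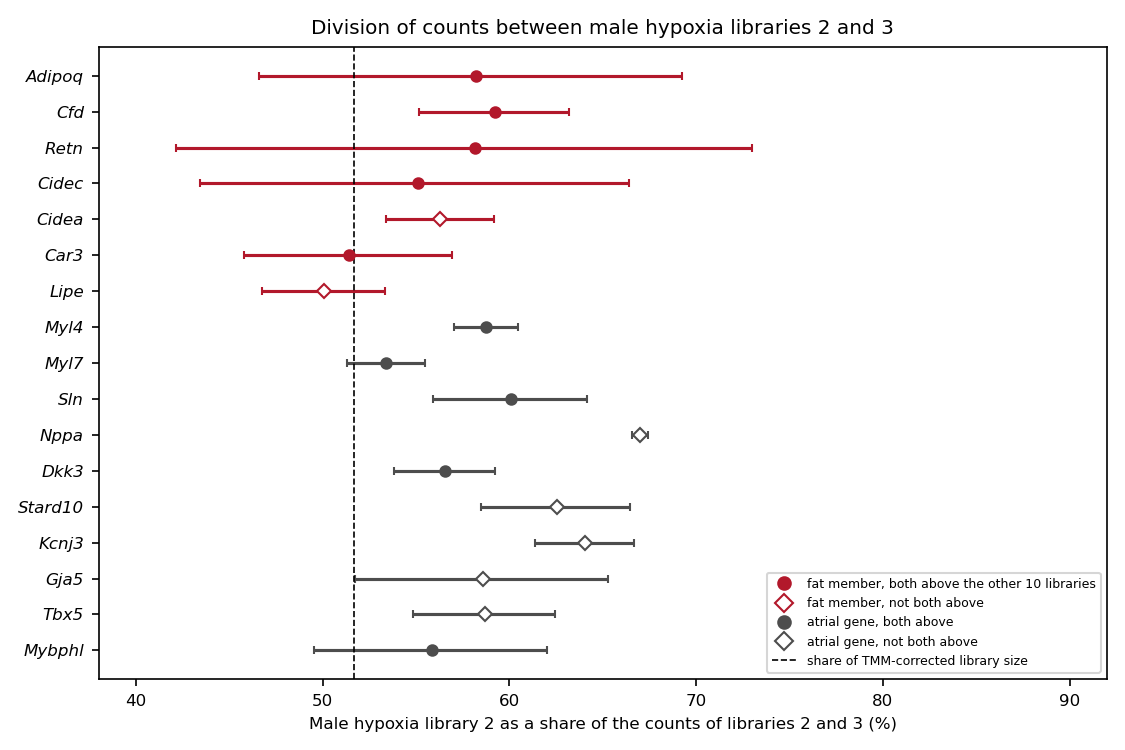
Share of male hypoxia library 2 in the estimated counts of male hypoxia libraries 2 and 3 (x axis, percent) for fat cell and atrial genes (y axis), with exact binomial 95% intervals as bars and the share of library size, 51.7%, as a dashed line. Filled circles are genes highest in both libraries and open diamonds are the others; Cfd lies at 59.2% and Myl4 at 58.8%, and Nppa lies farthest right at 67.0%.

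The wider biology of fat was followed in 98 further genes, listed as markers of white or brown fat cells, lipid droplet and lipolysis proteins, enzymes of fat synthesis, fat cell transcription factors, and fat hormones with their receptors. Of the 86 with a mean of at least 3 counts, 7 were highest in both male hypoxia libraries 2 and 3, where 5.39% of all genes were, and 7 were lowest in both, where 4.58% of all genes were. Neither count is far from its background. The 7 highest were Cebpd, Dio2, Fabp4, Lepr, Rbp4, Scd1 and Scd2. Rbp4, the retinol carrier, was at 1.57 and 1.17 CPM there and at most 0.351 CPM elsewhere. Scd1, a fatty acid desaturase, was at 21.7 and 20.7 CPM there and at most 13.6 CPM elsewhere. Fabp4, the fatty acid carrier of fat cells and of capillary endothelium, was at 1180 and 1072 CPM, against 532 to 1022 CPM in the other 10. The 7 lowest were Cideb, Fitm1, Kcnk3, Mlxipl, Mrap, Plin4 and Rxrg. Plin4, a lipid droplet coat protein of white fat and muscle, was at 156 and 130 CPM there and at least 175 CPM elsewhere. Mrap, a partner of the melanocortin receptors that fat cells express, was at 3.53 and 4.08 CPM there and at least 4.90 CPM elsewhere.

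Most of the other white fat and lipolysis genes with the highest counts did not stand apart. Lpl, the lipase that frees fatty acids from lipoproteins, was at 4135 and 3604 CPM in male hypoxia libraries 2 and 3, against 2834 to 5938 CPM in the other 10. Cd36, a fatty acid transporter, was at 1030 and 980 CPM, against 902 to 1776 CPM. Pnpla2, the lipase that begins triglyceride breakdown, was at 279 and 209 CPM, against 201 to 1078 CPM, with female normoxia library 3 the highest. Mgll was at 196 and 215 CPM, against 166 to 373 CPM. Plin4 and Fabp4 are the exceptions given above.

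**Figure D3:**
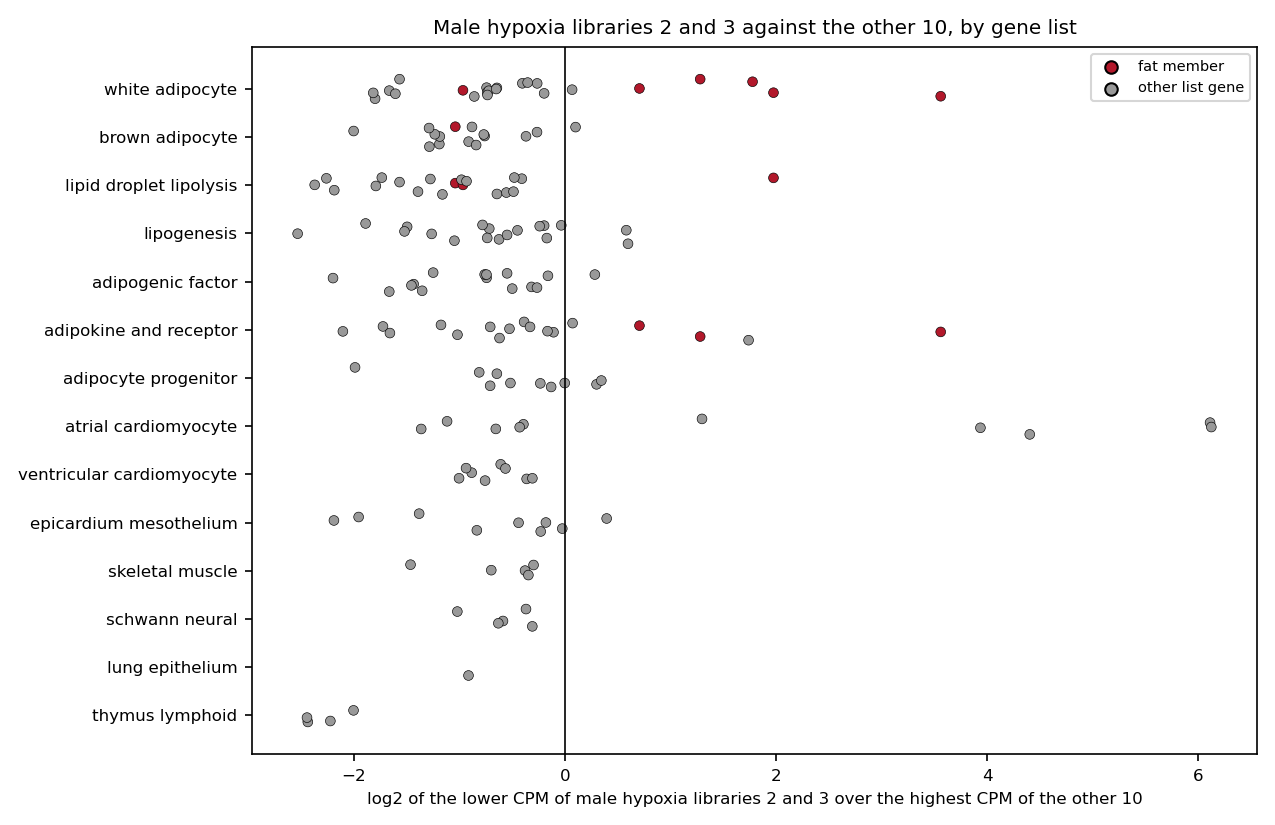
Log2 of the lower CPM of male hypoxia libraries 2 and 3 over the highest CPM of the other 10 (x axis) for genes with a mean of at least 3 counts, by gene list (y axis), with fat cell members in red and other list genes in grey. Points right of 0 are higher in both libraries than in all others: Cfd, at a ratio of 11.8, is the member farthest right, and 5 atrial genes also lie right of 0.

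Genes nearest in pattern to Adipoq were found by the root mean squared distance of centred log2 CPM over the 12 libraries, among 10948 genes. They were Mmp3 (0.94), C4b (0.98), Ccn3 (0.98), Prg4 (0.99), Cytl1 (1.03) and Aldh1a1 (1.04). Mmp3 was at 37.6 and 18.1 CPM in male hypoxia libraries 2 and 3 and at most 10.3 CPM elsewhere, in female normoxia library 3. Because Adipoq had few counts, the distance was also measured from Cfd, a choice made after the values were seen. Myl4 was nearest to Cfd (1.27), followed by Ccn5 (1.46), Apod (1.46), Prg4 (1.47), Serpina3n (1.56) and Comp (1.57). Of these genes, Prg4 alone was among the nearest to both.

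In hypoxic against normoxic males, the fitted log2 difference of each member is given as a description, since that contrast includes the libraries that chose them. It was 3.94 for Adipoq, 4.18 for Cfd and 3.13 for Car3. Without male hypoxia libraries 2 and 3, which leaves 1 hypoxic library, it was 0.65, 0.43 and 0.20 for these genes. For Cidea it was -0.03, and 0.04 without those libraries, and for Lipe it was 0.44, and 0.99 without them.

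The female libraries allow a test of hypoxia on a contrast that did not choose the members. The spread was estimated from all 12 libraries, including those that chose the members. Of the 10 members, 5 passed the filter on low counts: Adipoq, Cfd, Cidea, Car3 and Lipe. Adipoq exceeded 1 CPM only in male hypoxia libraries 2 and 3 and female normoxia library 1 and passed with the help of the libraries that chose it, so its test is not free of that choice. Neither Adipoq nor Cfd was kept when only the female libraries were filtered and fitted. None of the 5 passed an adjusted p of 0.05 in edgeR's quasi-likelihood test of hypoxic against normoxic females, where 3.97% of the 13960 genes tested rose and 2.02% fell, and 0 of the 5 had an unadjusted p under 0.05. DESeq2, which gave no adjusted p for Adipoq, called 0. Adipoq averaged 0.0539 ± 0.0548 CPM in hypoxic females and 0.466 ± 0.505 CPM in normoxic females (SD, n = 3 each), a log2 difference of -2.91 ± 1.35 (SE, adjusted p = 0.211 in edgeR). Cfd averaged 0.511 ± 0.521 CPM in hypoxic females and 0.164 ± 0.285 CPM in normoxic females (1.63 ± 1.64, adjusted p = 0.577 in edgeR). Both genes had few counts in females, at most 16 for Adipoq and 20 for Cfd in any library.

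Cidea and Lipe had ample counts. Cidea averaged 29.9 ± 3.17 CPM in hypoxic females and 36.3 ± 14.2 CPM in normoxic females (log2 difference -0.28 ± 0.23, adjusted p = 0.473 in edgeR). Its sign rests on female normoxia library 3, without which it was 0.086. Lipe averaged 18.4 ± 2.61 CPM in hypoxic females and 27.1 ± 11.5 CPM in normoxic females (-0.55 ± 0.31, adjusted p = 0.295 in edgeR), and without female normoxia library 3 its difference was -0.16. Car3 averaged 0.774 ± 0.429 CPM in hypoxic females and 0.930 ± 1.22 CPM in normoxic females (-0.24 ± 1.03, adjusted p = 0.914 in edgeR). The sign for Car3 rests on female normoxia library 1, without which it was 1.69, and turned to 0.060 without female hypoxia library 1 and to 0.73 with limma voom.

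Sex was tested in normoxia, a contrast that holds neither of the libraries that set the members apart. The filter and the spread again used all 12 libraries, including those 2. The test of Adipoq, which passed the filter with their help, is therefore not free of that choice here either. Normoxic females against normoxic males gave 0 of 5 members past the threshold and 0 with an unadjusted p under 0.05, and DESeq2 called 0. Only 0.043% of all genes tested were higher and 0.0287% lower in females. The log2 difference was 2.40 ± 1.30 (SE) for Adipoq, -1.68 ± 1.65 for Cfd, 0.29 ± 0.23 for Cidea, 0.54 ± 1.06 for Car3 and 0.34 ± 0.31 for Lipe, with adjusted p-values of 0.719 to 0.928 in edgeR. The comparison with hypoxic females uses the same normoxic female libraries.

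Of the 98 wider genes, 83 were tested. In hypoxic against normoxic females 5 rose and 5 fell, which is 6.02% in each direction beside 3.97% and 2.02% of all genes, with a median log2 difference of -0.20 against -0.02 for all genes. At an unadjusted p under 0.05, 12 were higher and 25 lower. The share of all genes at that level was not computed, so these counts cannot be read as particular to fat genes. When only the female libraries were fitted, 1 of the wider genes passed. With single libraries left out the count was 1 to 25, with 25 without female hypoxia library 1, 1 without female hypoxia library 2 or 3, 6 without female normoxia library 1 and 2 without female normoxia library 2. No white fat marker (of 17 tested) or fat cell transcription factor (of 14) passed.

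Among those that rose, Dio2, the deiodinase that activates thyroid hormone and is typical of brown fat, was at 4.38, 10.7 and 12.7 CPM in hypoxic females, against 2.45, 1.93 and 0.925 CPM in normoxic females. The groups did not overlap, and the log2 difference was 2.39 ± 0.52 (SE, adjusted p = 0.0271 in edgeR). Mgll, which completes triglyceride breakdown, rose by 0.78 ± 0.14 (adjusted p = 0.0127 in edgeR), the fatty acid elongase Elovl5 by 0.72 ± 0.13 (adjusted p = 0.0127) and Cap1, an actin regulator reported to bind resistin in human cells, by 0.61 ± 0.16 (adjusted p = 0.0454). Pcx, pyruvate carboxylase, had 84.4, 60.2 and 192 estimated counts in hypoxic females and 0 in all 3 normoxic female libraries, a level at least 33.0-fold higher against a floor of 3 counts per library (adjusted p = 0.0258 in edgeR). Pcx ran from 27.7 to 409 counts in normoxic males. Whether its 0 in normoxic females reflects the tissue or the quantification of its transcripts was not tested, and the fold carries that limit.

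Among those that fell, Agpat2, an enzyme of triglyceride synthesis, averaged 21.5 ± 2.00 CPM in hypoxic females and 40.0 ± 3.83 CPM in normoxic females (SD, n = 3 each; log2 difference -0.90 ± 0.11 SE, adjusted p = 0.00273 in edgeR). It was the gene that passed when only the female libraries were fitted. G0s2, an inhibitor of Pnpla2, fell by 1.43 ± 0.30 on the log2 scale (adjusted p = 0.0252 in edgeR), the muscle fatty acid carrier Fabp3 fell by 0.76 ± 0.15 (adjusted p = 0.0214), the respiratory subunit Cox7a1 fell by 0.71 ± 0.15 (adjusted p = 0.0260) and the glycerol kinase Gk fell by 0.48 ± 0.13 (adjusted p = 0.0469). Among 22 alternatives, Agpat2 passed in 22, Gk in 8 and Cap1 in 7, and the other 7 genes in 15 to 18. Fabp3, Cox7a1 and Gk stand in the brown fat list, and heart muscle expresses Fabp3 and Cox7a1 strongly. In the same contrast the epicardial genes Wt1 and Krt19 rose by 1.42 ± 0.24 (adjusted p = 0.0112 in edgeR) and 2.49 ± 0.61 (adjusted p = 0.0398), and the atrial list genes Stard10 and Gja5 fell by 1.34 ± 0.20 (adjusted p = 0.00862) and 0.81 ± 0.18 (adjusted p = 0.0315). In normoxic females against normoxic males, 0 of the 83 passed in edgeR, 2 were higher and 2 lower at an unadjusted p under 0.05, and DESeq2 called 2. The unadjusted counts again have no share of all genes beside them.

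**Figure D4:**
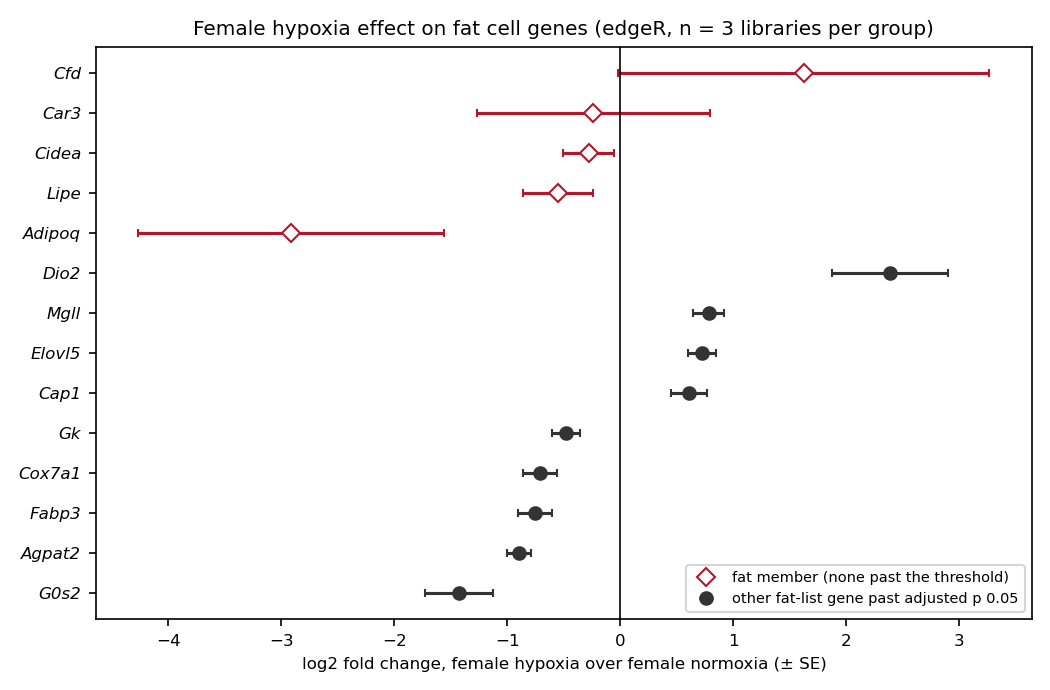
Log2 fold change of hypoxic over normoxic females (x axis, ± SE, edgeR, n = 3 libraries per group) for the 5 tested fat cell members (open red diamonds) and for genes of the wider fat lists past an adjusted p of 0.05 (filled circles). No member passed the threshold, Dio2 had the highest filled point at 2.39 and G0s2 the lowest at -1.43; Pcx, at 0 in all normoxic female libraries, is left out.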

How the data were processed

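Ventricular mRNA of 12 mouse libraries was sequenced with a directional kit, per the labels' protocols. The submitters' processing notes name FastQC, Salmon and the build GRCm39. Versions and the strand setting are not given in the sources used here. The deposited table, in the layout of tximport per its header, holds estimated counts not scaled from abundance, TPM and effective transcript lengths. The lengths were not used in the fits, so differences in transcript length between libraries were not corrected for there. The deposited TPM were used for levels between genes.

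Estimated counts were rounded to whole numbers. Symbols were matched for 99.3% of identifiers. edgeR 4.0.16 in R 4.3.3 kept 13960 genes (filterByExpr, 4 groups), scaled them with TMM factors and fitted all 12 libraries with 8 residual degrees of freedom. Tests were two-sided, quasi-likelihood, with Benjamini-Hochberg adjustment over all genes tested and a threshold of 0.05. Levels are CPM on TMM-corrected totals. Genes compared by library had a mean of at least 3 counts. Intervals are exact binomial at 95% and, since reads carry no molecular identifiers, cover counting error only. Standard errors were derived from the fold change and the F statistic. DESeq2 1.42.0, limma 3.58.1 voom, other scaling factors and filters, a replicate block and libraries left out were alternatives. Scripts were tested on simulated data.

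The members and the 14 gene lists were chosen with earlier results of these data known. The naming rule took all members, up to 4 genes per list past the threshold, the 3 per list with the highest count in male hypoxia library 2, and the 6 nearest patterns to Adipoq; some genes it names are not described. Every column of values could be tied to its sample (0 could not).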

Additional observations from a re-analysis of the deposited data

How the results depend on the processing

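No member passed the threshold in either tested contrast under the alternatives in which it was tested. Adipoq and Cfd were not tested in either contrast with only the compared libraries or with at least 50 counts in 3 libraries, nor Car3 with that filter, nor Car3 in normoxic females against males with only the compared libraries. DESeq2 gave no adjusted p for Adipoq in the female contrast. Of the wider fat genes, 10 passed in hypoxic against normoxic females. That count was 22 with DESeq2, 7 with limma voom, 6 without male hypoxia libraries 2 and 3 and 1 with only the compared libraries. It ran from 1 to 25 with single libraries left out: 25 without female hypoxia library 1, 1 without female hypoxia library 2 or 3, 6 without female normoxia library 1 and 2 without female normoxia library 2. In normoxic females against males the count of 0 was 1 with no filter and 2 with DESeq2, and 0 to 1 with single libraries left out, with the 1 coming without male normoxia library 2. The cause was not tested.

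No pairing by replicate number was seen over the genes tested, where deviations of same-numbered libraries correlated at -0.05 to 0.09. A pairing that affects only part of the genes could be missed by these correlations. With the replicate number as a block, 0 members and 9 wider fat genes passed in the female contrast, Cap1 being lost (adjusted p = 0.0598 in edgeR).

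Without male hypoxia libraries 2 and 3, the male log2 difference was 0.65 for Adipoq, 0.43 for Cfd, 0.20 for Car3 and 0.99 for Lipe. The ratio of the lower of those libraries to the highest other one was, for Cidea, 0.601 in TPM, 0.584 with no TMM factor and 0.580 without mitochondrially encoded and haemoglobin genes, and for Lipe 0.601 in TPM and 0.589 with no TMM factor.

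Signs changed only for values that were not past the threshold. Car3 was 0.73 in hypoxic against normoxic females and -0.41 in normoxic females against males with limma voom. With single libraries left out, log2 differences in hypoxic against normoxic females ran from -0.79 to 1.69 for Car3, -0.45 to 0.086 for Cidea and -0.032 to 0.12 for Adipor1. In normoxic females against males they ran from -1.38 to 1.09 for Car3, -0.075 to 0.46 for Cidea, -0.052 to 0.57 for Lipe, -0.090 to 0.37 for Fabp4, -0.12 to 0.053 for Fabp3, -0.094 to 0.28 for Cpt1b, -0.20 to 0.55 for G0s2, -0.17 to 1.10 for Pnpla2, -0.095 to 0.015 for Elovl5, -0.044 to 0.082 for Me1, -0.37 to 0.068 for Cebpd and -0.13 to 0.018 for Adipor1.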
